A study of Mus musculus with 67 samples.

Results

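The genes described here are 10 established transcriptional targets of p53, chosen by name from the 25006 genes of the wild-type expression table: Cdkn1a, Ccng1, Btg2, Mdm2, Phlda3, Sesn2, Trp53inp1, Bbc3, Bax and Eda2r. The choice was made with earlier results of these data known. All 10 were in the table and all 10 passed the filter on low values. p53, encoded by Trp53, is a transcription factor that is kept at a low protein level by the ubiquitin ligase Mdm2 and accumulates after DNA damage and other stresses. Its targets arrest the cell cycle, feed back on p53 and its neighbouring pathways, or promote cell death, and in the early epiblast the pathway is known for its role in removing damaged or less fit cells. Because p53 is regulated mainly as a protein, the RNA of its targets is commonly read as the output of the pathway, while Trp53 RNA is a separate quantity.

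RNA was measured by Smart-seq2 in 67 libraries of 23 groups from wild-type mouse embryos, with a reporter line in which the Pdgfra promoter drives EGFP used to help isolate the lineages, and the strain was not given in the labels. Embryonic lineages were the inner cell mass (ICM) at E3.5, the epiblast (Epi), sampled at 5 ages between E4.5 and E5.5, the primitive endoderm (PrE), sampled at 4 ages between E4.5 and E5.25, and the visceral endoderm (VE) at E5.5. Trophoblast lineages were the TE, or trophectoderm, at E3.5 and E4.5, followed at E4.75 and E5.5 by the extra-embryonic ectoderm (ExE) and by giant cells (TGC). Most groups had 3 libraries. The in vivo groups of Epi, of ExE and of the visceral endoderm called VE_Epi had 2 at E5.5, while giant cells grown in vitro had 4. At E5.5 the labels state whether embryos were grown in vitro, in a 3D culture in Matrigel, or taken in vivo from the decidua. VE was a single group in vitro, while in vivo it was given as VE_Epi and VE_ExE. Some Epi groups at E5.0 and E5.25 carry an in vivo suffix, and whether their unsuffixed counterparts were cultured is not stated by the labels. Each library came from about 10 to 100 cells and was amplified for 17 cycles. The labels speak of biological replicates but not of separate embryos or litters, so the spread behind each p-value is that of the libraries alone and may be technical. Values are TPM, transcript levels scaled for gene length and library total, which keep no sequencing depth, so the depth is unknown and no counting interval is given.

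Several libraries and groups stood apart before any gene was compared. Between 8423 and 10241 genes reached 1 TPM in the libraries labelled in vivo, against 10422 to 11181 in their unsuffixed or in vitro counterparts. Rn45s, the ribosomal RNA precursor, took 8.2% to 11% of the TPM in Epi E5.0 in vivo and 15% to 24.6% in Epi and PrE of E4.5. Actb, encoding cytoplasmic actin, took 5.39% to 15.4% in the E5.5 in vivo groups, against 1.14% to 4.06% in their in vitro counterparts. Epi E4.5 replicate 1 listed 3307 genes at 0, against 13659 and 12723 in replicates 2 and 3. Of the epiblast markers Pou5f1, Nanog, Sox2 and Tdgf1, Epi E5.0 in vivo held a summed 99.7 to 163 TPM, against 402 to 506 in unsuffixed Epi E5.0. ExE E5.5 in vitro held the 4 primitive endoderm markers Sox17, Gata6, Pdgfra and Dab2 at a summed 485 to 592 TPM, against 2.34 to 5.0 in ExE E5.5 in vivo. In bulk libraries such as these, fewer cells of a type and less RNA per cell cannot be told apart. The part of these features in the results below was not tested, and results that rest on a doubtful library are also given without it.

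The promoters are shown because the members moved together, and because p53 binds a response element made of a pair of 10-base half-sites. RefSeq promoter windows on GRCm38.p6, from 250 bases before to 50 bases after a transcript start, were found for 9 of the 10 members, with 12 windows in all. The consensus of the p53 response element, named here without its letters, was searched on both strands. An exact half-site lay in at least 1 window of Cdkn1a, Ccng1, Mdm2 and Bax, and in 8.36% of all 32851 windows. A pair of half-sites with at most 2 mismatches and a spacer of at most 13 bases lay in windows of Cdkn1a, Ccng1 and Bax, and in 4.09% of all windows. In the 3 stretches printed here, 5′ to 3′ on the strand of the gene, capitals mark the pair with the fewest mismatches. Other pairs within the limits are not marked.
Cdkn1a, chr17:29090886-29090957, plus strand: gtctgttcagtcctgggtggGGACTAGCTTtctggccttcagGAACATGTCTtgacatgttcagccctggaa
Ccng1, chr11:40755442-40755501, minus strand: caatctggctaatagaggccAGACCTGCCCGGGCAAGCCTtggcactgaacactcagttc
Bax, chr7:45467059-45467119, minus strand: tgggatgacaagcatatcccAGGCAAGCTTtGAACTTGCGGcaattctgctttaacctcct

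The marked Cdkn1a pair had 0 mismatches and a spacer of 12 bases, and lay from 73 to 42 bases before the start. The lowercase bases tgacatgttc, directly after its second half-site, fit a half-site with 1 mismatch. They form with it a further pair, without a spacer, that also met the limits. The window at the other Cdkn1a start held no exact half-site and no pair. The Ccng1 pair had 1 mismatch and no spacer and lay from 195 to 176 bases before the start. The Bax pair had 2 mismatches and a spacer of 1 base and lay from 201 to 181 bases before it. A match describes letters in this window only, and says nothing of sites elsewhere in these genes.

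Across the 23 groups the members differed widely in level. Bax was the most abundant, with group means from 103 ± 55 TPM in VE_ExE E5.5 in vivo to 1146 ± 92.6 TPM in unsuffixed Epi E5.0 (SD, n = 3 each). Bbc3 was the least abundant: its highest group mean was 6.58 ± 3.7 TPM, in Epi E5.5 in vitro (n = 3), and 13 of 67 libraries listed it at 0. Cdkn1a ran from 4.73 ± 3.38 TPM in VE_Epi E5.5 in vivo (n = 2) to 622 ± 52.2 TPM in TGC E5.5 in vitro (n = 4). For 9 of the 10 members the lowest mean was in Epi E5.0, VE_Epi or VE_ExE, all labelled in vivo. Bbc3 was listed at 0 in every library of 4 groups: ICM E3.5, Epi E5.5 in vivo, VE_Epi and VE_ExE.

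**Figure D1:**
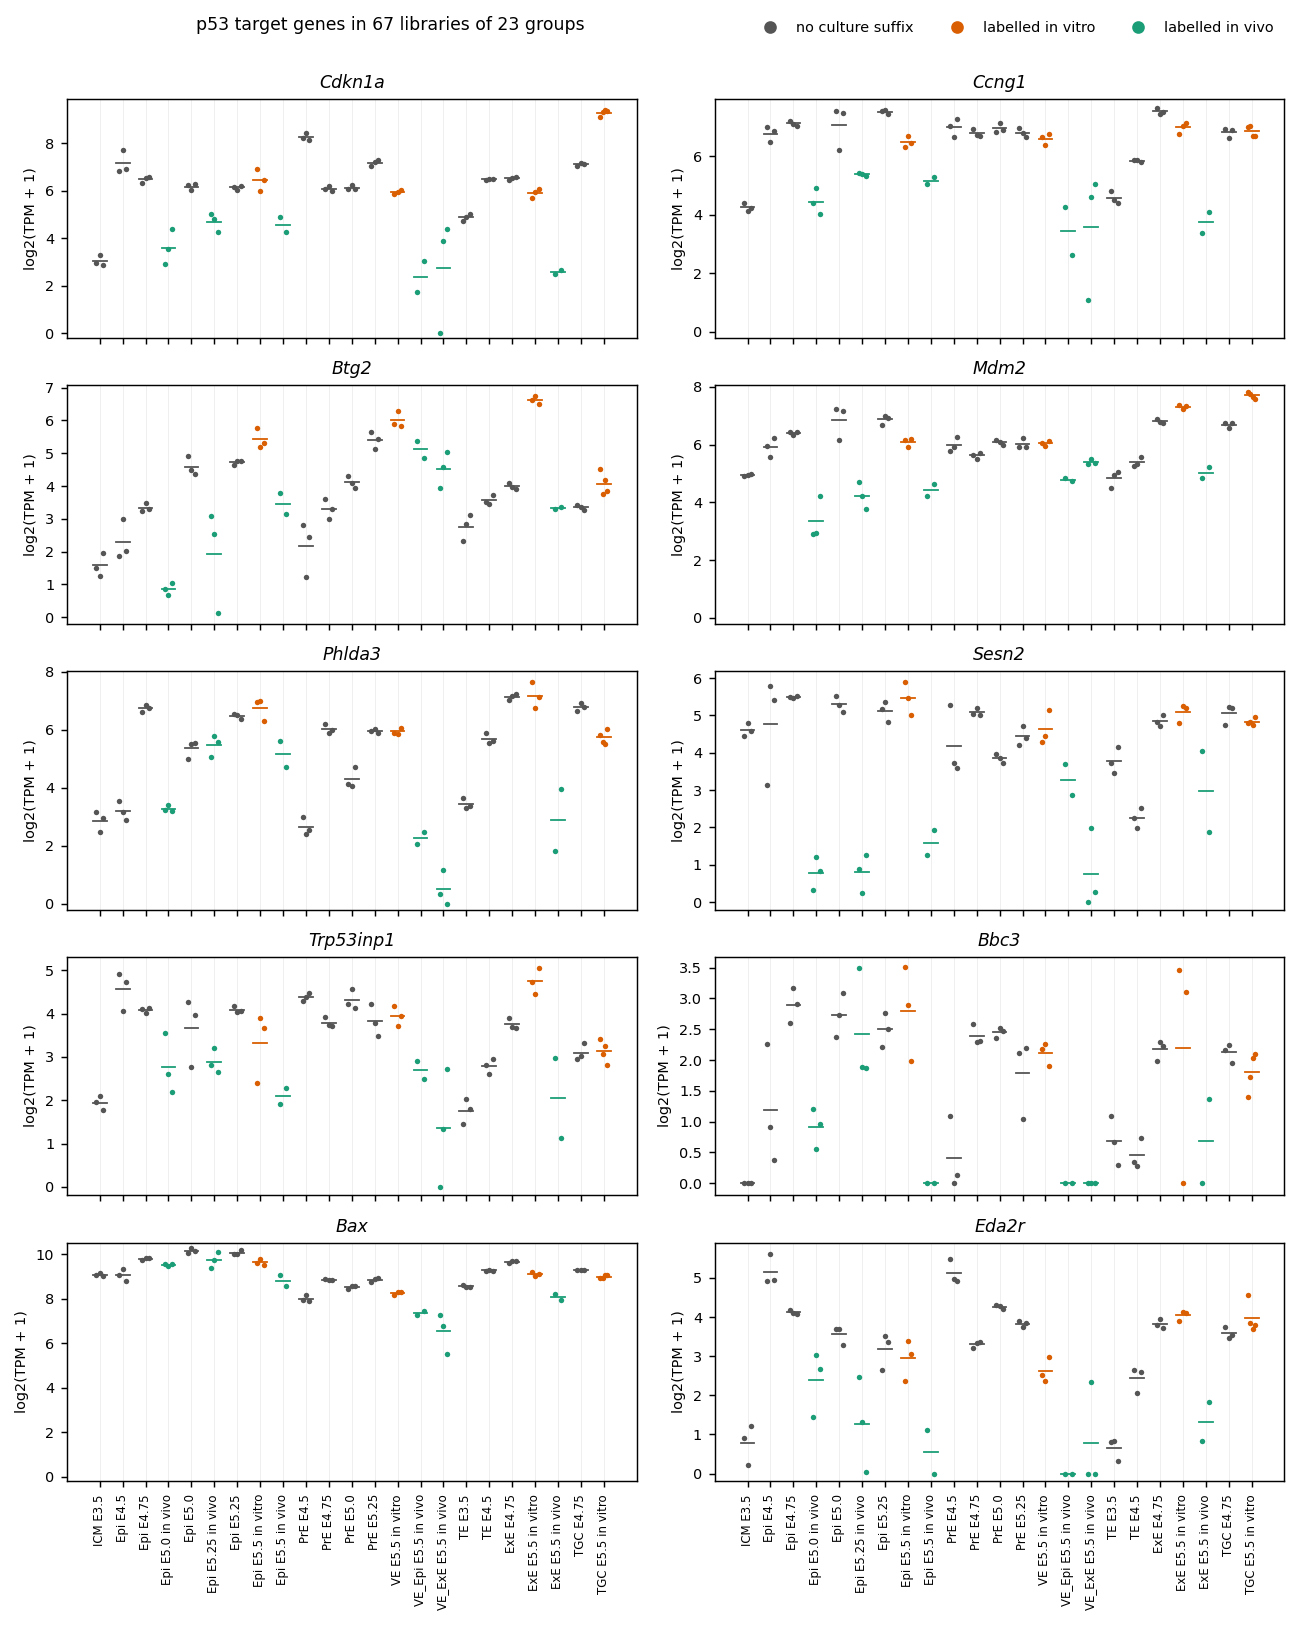
Levels of the 10 p53 target genes by library (points) with group means (bars) on a log2(TPM + 1) axis, for the 23 groups; colours give the culture label. Libraries labelled in vivo (green) lie below their unsuffixed (grey) or in vitro (orange) counterparts for most members, and Cdkn1a peaks in TGC E5.5 in vitro at 622 TPM.

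Most neighbouring groups in these orders did not separate. Of the 22 pairs of neighbours in the order of group means, library ranges overlapped in 16 for Cdkn1a and Mdm2, 17 for Ccng1, Btg2, Phlda3 and Bax, 20 for Sesn2 and Eda2r, 21 for Bbc3 and 22 for Trp53inp1. For Cdkn1a the top positions were separate: TGC E5.5 in vitro lay above PrE E4.5 (303 ± 32.3 TPM), which lay above Epi E4.5 (146 ± 52.4 TPM). For Mdm2, TGC E5.5 in vitro (209 ± 15.2 TPM) lay above ExE E5.5 in vitro (157 ± 7.06 TPM), and Epi E5.0 in vivo (10.3 ± 6.39 TPM) was the lowest. For Btg2, ExE E5.5 in vitro (98.3 ± 9.22 TPM) lay above VE E5.5 in vitro (63.8 ± 11.8 TPM), and Epi E5.0 in vivo (0.822 ± 0.227 TPM) lay below every other group's mean.

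In each of 6 comparisons of unsuffixed or in vitro libraries with their in vivo counterparts, in epiblast, extra-embryonic ectoderm and visceral endoderm, between 7 and 9 of the 10 target genes were called higher. Differences were tested with limma on log2(TPM + 1) over 15567 genes, and a gene was called at a Benjamini-Hochberg adjusted p under 0.05 and a log2 difference of at least 1. In Epi E5.0, 8 of 10 members were called higher, against 23.1% of all genes, with a member median log2 difference of 2.32 against 0.39 for all genes. In Epi E5.25, 7 of 10 were called higher, against 7.99%, with medians of 1.67 and 0.16. In Epi E5.5, 9 of 10 were called higher, against 15.1%, with medians of 1.77 and 0.18. In ExE E5.5, 9 of 10 were called higher, against 9.40%, with medians of 2.71 and 0.19. In VE E5.5 in vitro, 8 of 10 were called higher than in VE_Epi in vivo, against 12.8%, and 9 of 10 were called higher than in VE_ExE in vivo, against 28.0%. The medians were 1.73 against 0.21 and 2.36 against 0.41 in these VE comparisons, which share the in vitro libraries. No member was called lower in any of the 6 comparisons, and all 60 fitted log2 differences were above 0 with values as deposited. For Bbc3 in Epi E5.25 that difference was 0.08 ± 0.49, while its mean TPM was higher in vivo, at 5.23 against 4.71. Fits of only the groups compared called 7, 5, 4, 6, 7 and 4 members higher, in the same order. The shares of all genes called higher in these fits were 14.5%, 3.62%, 3.07%, 2.99%, 8.42% and 11.9%. Fewer members were also called in Epi E5.5 without in vivo replicate 2, which left a single in vivo library.

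These counts moved with the scaling. After quantile normalization, which gives every library 1 shared distribution, the all-gene medians were between -0.05 and -0.03, and the members called higher numbered 7, 6, 8, 9, 6 and 9 of 10, in the order of the comparisons above. The shares of all genes called higher then were 10.4%, 5.05%, 10.0%, 4.79%, 7.46% and 14.7%, with 8.55%, 4.29%, 10.4%, 4.51%, 8.25% and 12.2% called lower. As deposited, the shares called lower were 1.97%, 2.70%, 6.73%, 2.43%, 5.33% and 5.88%. After median-ratio scaling the members called higher numbered 7, 5, 7, 8, 5 and 9, and again none was called lower. The shares of all genes were then 13.1%, 5.61%, 11.0%, 6.20%, 6.75% and 18.6% higher and 7.44%, 3.12%, 8.93%, 3.01%, 7.52% and 9.78% lower. The member medians after quantile normalization ran from 1.27, against VE_Epi, to 2.26, in ExE. Quantile normalization left 1 member below 0 in Epi E5.25, and median-ratio scaling left 1 below 0 in Epi E5.0 and in Epi E5.25.

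**Figure D2:**
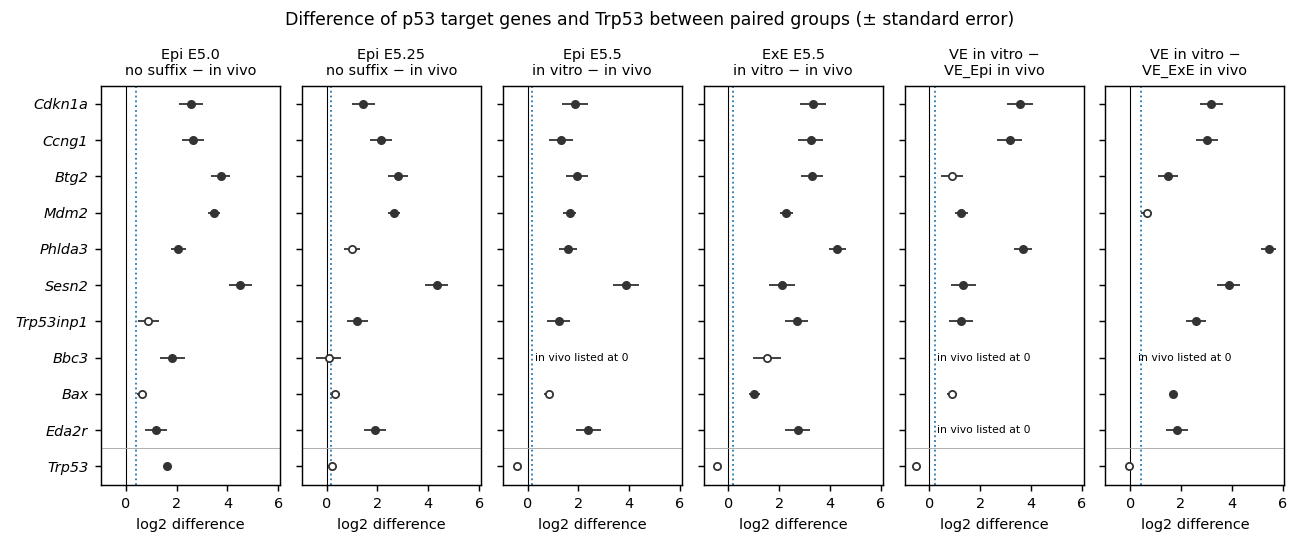
Log2 difference (± standard error) of the 10 target genes and Trp53 between each unsuffixed or in vitro group and its in vivo counterpart; filled points were called, open points were not, and the dotted line is the median of all genes. No difference is drawn where every in vivo library was listed at 0; all member points drawn lie above 0, while Trp53 runs from -0.54 to 1.63.

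Cdkn1a encodes the cyclin-dependent kinase inhibitor p21 and lies on chromosome 17, 29090976 to 29100727, on GRCm38. In Epi E5.5 in vitro it was 117, 61.4 and 86.6 TPM, and in Epi E5.5 in vivo 28.2 and 17.9 TPM. In ExE E5.5 it was 50.5, 60.3 and 65.5 TPM in vitro and 4.54 and 5.33 TPM in vivo. The ranges did not overlap in either tissue, and the ExE libraries were the further apart. The limma differences were 1.88 ± 0.51 (adjusted p = 0.0038) in Epi and 3.33 ± 0.51 (adjusted p = 2.2e-06) in ExE. In VE E5.5 in vitro Cdkn1a was 57.2, 59.5 and 64.9 TPM, against 2.34 and 7.12 TPM in VE_Epi and 0, 13.6 and 20.0 TPM in VE_ExE in vivo. All 3 in vitro libraries were above all 5 in vivo libraries, of which VE_ExE replicate 1 listed the gene at 0. That library also listed Sesn2 and Trp53inp1 at 0, and without it 9 members were still called against VE_ExE. At E5.0 the unsuffixed Epi libraries held 73.7, 63.5 and 75.9 TPM and the in vivo libraries 6.41, 10.6 and 19.5 TPM, a difference of 2.57 ± 0.46 (adjusted p = 1.1e-05). At E5.25 they held 70.5, 64.5 and 72.6 against 31.2, 27 and 17.9 TPM, a difference of 1.45 ± 0.46 (adjusted p = 0.024). The groups were separate at both ages, but median-ratio scaling ended the call at E5.25, as did a pseudocount of 0.1 TPM (adjusted p = 0.19). That pseudocount also ended the call in Epi E5.5, and so did a fit of only the groups compared. The call at E5.25 was lost without Epi E5.25 in vivo replicate 3 or without any 1 of the 3 unsuffixed libraries, and the call in Epi E5.5 without in vivo replicate 2. A gene on the opposite strand, AC167363.2, overlaps Cdkn1a, and whether the authors' counting used strand is not given in the sources used here.

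Ccng1, encoding cyclin G1, which acts on the Mdm2 loop through protein phosphatase recruitment, was called higher in all 6 comparisons. In ExE E5.5 it was 108, 130.1 and 141 TPM in vitro and 9.48 and 16.2 TPM in vivo, a difference of 3.24 ± 0.48 (limma adjusted p = 1.2e-06). In Epi E5.5 it was 77.7, 103 and 85.6 TPM in vitro and 31.9 and 38 TPM in vivo, a difference of 1.32 ± 0.48 (adjusted p = 0.035). Neither pair of groups overlapped, and the Epi difference was the smallest of the 6. Median-ratio scaling ended the call in Epi E5.5. That Epi call was lost without Epi E5.5 in vitro replicate 2 or 3, or without either in vivo library. The other differences were 2.65 ± 0.43 in Epi E5.0, 2.14 ± 0.43 in Epi E5.25, and 3.17 ± 0.48 and 3.02 ± 0.43 in VE against VE_Epi and VE_ExE.

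Btg2, an antiproliferative regulator of transcription and mRNA decay that also responds to growth factors, showed the largest of its 6 differences in Epi E5.0. The unsuffixed libraries held 29, 21.7 and 19.5 TPM and the in vivo libraries 0.813, 0.60 and 1.05 TPM, a difference of 3.73 ± 0.39 (limma adjusted p = 4.1e-11). ExE E5.5 held 98.8, 107 and 88.8 TPM in vitro and 8.92 and 9.22 TPM in vivo, a difference of 3.30 ± 0.43 (adjusted p = 6.6e-08). The groups were far apart in both tissues. In VE the in vitro libraries held 58.4, 77.4 and 55.8 TPM, against 40.4 and 28.2 TPM in VE_Epi. These ranges did not overlap, yet the difference of 0.89 ± 0.43 was not called (adjusted p = 0.14).

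Mdm2, the ubiquitin ligase that marks p53 for degradation and is itself a p53 target (chromosome 10, 117688875 to 117710758), was called higher in 5 of 6 comparisons. At E5.0 unsuffixed Epi held 148, 69.7 and 141 TPM and in vivo Epi 6.57, 6.65 and 17.7 TPM, a difference of 3.48 ± 0.23 (limma adjusted p = 7.5e-18). At E5.5 Epi held 70.2, 59.4 and 72.7 TPM in vitro and 17.6 and 24.1 TPM in vivo, a difference of 1.66 ± 0.25 (adjusted p = 1e-06). Every in vivo Epi library was below every counterpart at both ages. In ExE E5.5 the levels were 163, 149 and 159 TPM in vitro and 27.7 and 36.2 TPM in vivo, a difference of 2.27 ± 0.25 (adjusted p = 9.3e-10). In VE the difference was 1.25 ± 0.25 against VE_Epi, a call lost after median-ratio scaling, and 0.65 ± 0.23 against VE_ExE. The latter fell under the fold limit, with 64.9, 61.1 and 68.3 TPM in vitro and 39, 43.9 and 40.0 TPM in vivo.

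Phlda3, whose product competes with Akt for membrane lipids and so restrains Akt, had the widest spread of differences between tissues. In ExE E5.5 it was 199.8, 106 and 138 TPM in vitro and 2.51 and 14.6 TPM in vivo. In Epi E5.5 it was 122, 125 and 78.5 TPM in vitro and 47.3 and 25.1 TPM in vivo. Neither tissue's groups overlapped, but in vivo Epi stood well above in vivo ExE. The differences were 4.28 ± 0.34 in ExE (limma adjusted p = 1.9e-14) and 1.59 ± 0.34 in Epi (adjusted p = 0.00024). Fits of only the groups compared called Phlda3 in neither tissue (adjusted p = 0.069 in ExE and 0.10 in Epi). The Epi difference minus the ExE difference was itself tested, and was -2.69 ± 0.48 (adjusted p = 7.4e-05). Phlda3 was the 1 member of 10 called in that test, against 10.0% of all genes. Without ExE E5.5 in vivo replicate 1, and likewise without replicate 2, 2 members were called in it, and in a fit of only the 4 groups compared Phlda3 was not called (adjusted p = 0.165). In VE in vitro Phlda3 was 58.3, 57 and 66.2 TPM, against 3.13 and 4.5 TPM in VE_Epi and 0.254, 1.23 and 0 TPM in VE_ExE in vivo. All 5 in vivo VE libraries were far below the in vitro ones. In Epi E5.25 the difference of 0.99 ± 0.30 lay just under the fold limit (adjusted p = 0.019).

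Sesn2, a stress-induced leucine sensor that restrains mTORC1 and is also a target of the integrated stress response, was low in the in vivo epiblast. Unsuffixed Epi held 44.9, 38.1 and 32.9 TPM at E5.0 and 35.3, 40.4 and 27.5 TPM at E5.25. In vivo Epi held 0.247, 1.33 and 0.78 TPM at E5.0 and 0.845, 0.191 and 1.42 TPM at E5.25. In Epi E5.5 it was 58.9, 43.3 and 31.5 TPM in vitro and 1.38 and 2.79 TPM in vivo. Every in vivo Epi library was far below every counterpart at all 3 ages. The limma differences were 4.51 ± 0.45, 4.33 ± 0.45 and 3.88 ± 0.50 at E5.0, E5.25 and E5.5, with adjusted p of 1.3e-11, 1.4e-10 and 3e-08. In ExE the in vivo libraries held 15.7 and 2.68 TPM and the call was lost without replicate 2, the lower one. That call was also lost in a fit of only the ExE groups compared. In VE against VE_Epi the difference was 1.34 ± 0.50 (adjusted p = 0.044), and the call was lost without VE in vitro replicate 2 or 3 or VE_Epi replicate 2. A same-strand gene, Gm12981, overlaps Sesn2, so its reads may be shared.

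Trp53inp1, encoding a nuclear protein that promotes p53 phosphorylation and autophagy, was called higher in 5 of 6 comparisons. ExE E5.5 held 25.4, 20.9 and 32.4 TPM in vitro and 6.89 and 1.18 TPM in vivo, a difference of 2.69 ± 0.46 (limma adjusted p = 1.5e-05). These groups were apart, but a fit of them alone did not call the gene (adjusted p = 0.12). In Epi E5.0 the unsuffixed 18.3, 5.76 and 14.5 TPM overlapped the in vivo 10.6, 5.04 and 3.53 TPM. There the difference of 0.89 ± 0.41 was not called (adjusted p = 0.092). The calls in Epi E5.25, Epi E5.5 and VE against VE_Epi each had an adjusted p of at least 0.036 and each was lost without any of several single libraries. These were Epi E5.25 in vivo replicates 1 and 3, the 3 unsuffixed Epi E5.25 libraries, Epi E5.5 in vitro replicates 2 and 3, both Epi E5.5 in vivo libraries, VE in vitro replicates 1 and 3, and both VE_Epi libraries.

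Of the 3 members that act in cell death, Eda2r was called higher in all 6 comparisons, Bbc3 in 4 and Bax in 2. Eda2r, a receptor of the tumour necrosis factor family, was 14, 16.6 and 16.2 TPM in ExE E5.5 in vitro and 0.777 and 2.55 TPM in vivo, a difference of 2.72 ± 0.49 (limma adjusted p = 3.6e-05). In VE in vitro it was 4.77, 4.16 and 6.93 TPM, while both VE_Epi libraries and 2 of 3 VE_ExE libraries listed it at 0. The groups were separate in these tissues, but only narrowly in VE against VE_ExE. There a limma fit of only the groups compared did not call Eda2r (adjusted p = 0.18). In Epi E5.0 the difference was 1.18 ± 0.44, and this call was lost without unsuffixed Epi E5.0 replicate 1 or 2 or in vivo replicate 1. It was also lost after quantile normalization and after median-ratio scaling.

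Bbc3 encodes PUMA, a BH3-only activator of mitochondrial apoptosis. In Epi E5.5 it was 10.4, 6.44 and 2.95 TPM in vitro and listed at 0 in both in vivo libraries. In VE E5.5 it was 3.55, 3.78 and 2.75 TPM in vitro and listed at 0 in all 5 in vivo libraries. A 0 in a table without counts can be a failed estimate, so no fold is given, although limma called both tissues higher. In Epi E5.25 the in vivo libraries held 10.3, 2.69 and 2.67 TPM, overlapping the unsuffixed 3.62, 5.82 and 4.7 TPM. In ExE E5.5 in vitro 1 of 3 libraries listed it at 0 and the difference was not called (adjusted p = 0.053).

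Bax, the pore-forming effector of the same route (chromosome 7, 45461697 to 45466898), passed the fold limit only in ExE and in VE against VE_ExE. In Epi E5.5 it was 779, 879 and 734 TPM in vitro and 527 and 375 TPM in vivo, a difference of 0.84 ± 0.21 (limma adjusted p = 0.0014), under the fold limit. ExE E5.5 held 585, 513 and 559 TPM in vitro and 295 and 247 TPM in vivo, a difference of 1.03 ± 0.21 (adjusted p = 0.00021). The groups did not overlap in either tissue, but the ExE call sat at the fold limit and was lost without ExE in vitro replicate 1 or in vivo replicate 2, and after median-ratio scaling. In VE against VE_ExE the difference was 1.70 ± 0.18 (adjusted p = 6.9e-11). A same-strand gene, Gm45808, overlaps Bax.

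In all, 50 of the 60 tests of a member were called higher. Genes listed at 0 in every library of an in vivo group account for 4 of the 50. Without them the member medians were 1.66 in Epi E5.5, 1.30 in VE against VE_Epi and 2.59 in VE against VE_ExE. Cdkn1a, Ccng1, Sesn2 and Eda2r were called in all 6 comparisons. Over the 4 comparisons that share no library (Epi E5.0, E5.25 and E5.5, and ExE E5.5), 6 of 10 members were called higher in every one, namely these 4 with Btg2 and Mdm2, against 0.385% of all genes (60 of 15567). Because the members were chosen with earlier results of these data known, their share against that of all genes is a description and no independent test. These counts are for values as deposited. Median-ratio scaling ended the calls of Eda2r in Epi E5.0, Cdkn1a in Epi E5.25 and Ccng1 in Epi E5.5. Btg2, Mdm2 and Sesn2 kept theirs in every one. Quantile normalization ended that of Eda2r in Epi E5.0. The matching shares of all genes were not computed after rescaling.

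Markers of other cells also differed between these groups. In ExE E5.5 the 4 primitive endoderm markers and 3 of 4 visceral endoderm markers were called higher in vitro. The visceral endoderm markers Ttr, Apoa1, Afp and Amn summed to 355 to 439 TPM in vitro and 10.01 to 19.2 TPM in vivo. The 4 trophoblast markers Cdx2, Eomes, Elf5 and Tfap2c summed to 142 to 206 TPM in unsuffixed Epi E5.0 and 44 to 47 TPM in Epi E5.0 in vivo. At E5.25 they summed to 80.3 to 88.7 TPM in the unsuffixed and 2.08 to 5.44 TPM in the in vivo Epi libraries, and at E5.5 to 13.4 to 23.3 TPM in vitro and 5.19 to 6.02 TPM in vivo, where Cdx2, Elf5 and Tfap2c were at 0. The visceral endoderm markers summed to 31.5 to 59.7 TPM in Epi E5.5 in vivo and 4.77 to 10.0 TPM in vitro. The part of these cells in the members' levels was not tested. The visceral endoderm markers were high in each VE group, with at least 1961 TPM in the in vivo groups and at least 4384 TPM in vitro.

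Trp53 RNA was called higher in 1 of the 6 comparisons and lower in none. In Epi E5.5 it was 536, 606 and 587 TPM in vitro and 714 and 823 TPM in vivo, a difference of -0.41 ± 0.12 (limma adjusted p = 0.0055). In ExE E5.5 it was 354, 334 and 341 TPM in vitro and 437 and 500.1 TPM in vivo, a difference of -0.45 ± 0.12 (adjusted p = 0.0049). In both tissues the in vitro libraries were the lower ones, by less than the fold limit of a call. In VE the difference was -0.54 ± 0.12 against VE_Epi (adjusted p = 0.00042) and -0.04 ± 0.10 against VE_ExE (adjusted p = 0.88). Epi E5.0 was the exception, with 577, 717 and 713 TPM unsuffixed and 208, 200.3 and 236 TPM in vivo, a called difference of 1.63 ± 0.10 (adjusted p = 5.2e-18). At E5.25 the difference was 0.23 ± 0.10 (adjusted p = 0.15). Over the 23 groups Trp53 was highest in Epi E5.5 in vivo, where Cdkn1a ranked 18 and Mdm2 ranked 21 of 23 groups, and lowest in TE E4.5 at 49 ± 6.54 TPM. Mdm4, the partner of Mdm2 in restraining p53, was not called in any of the 6 comparisons, and its highest level was 66.9 ± 11.8 TPM in Epi E4.5.

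**Figure D3:**
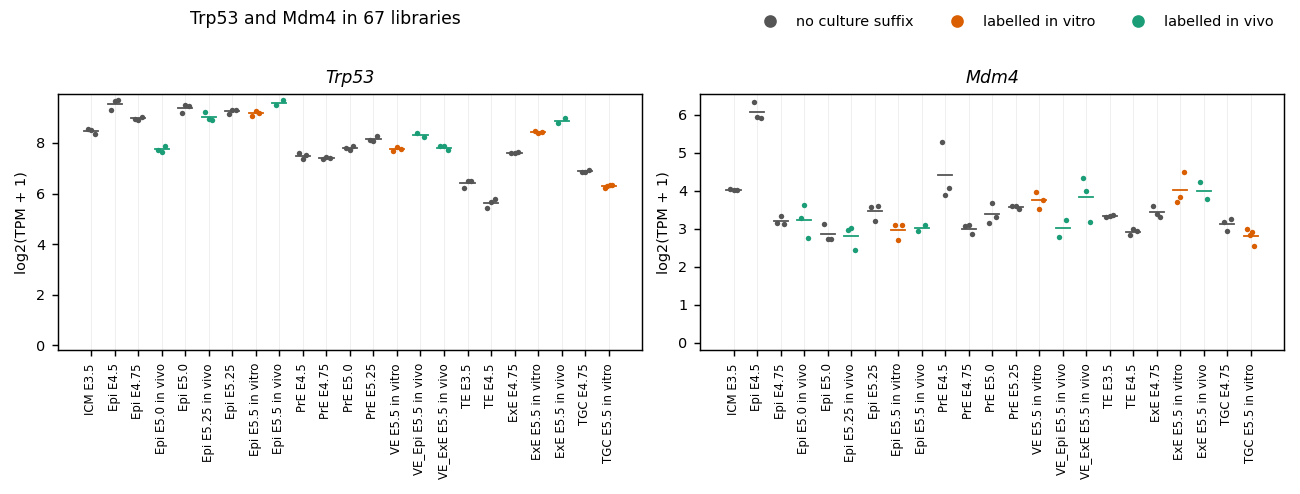
Levels of Trp53 and Mdm4 by library (points) with group means (bars) on a log2(TPM + 1) axis, for the 23 groups; colours give the culture label. Trp53 is highest in the epiblast groups other than Epi E5.0 in vivo, and lowest in TE and TGC, and Mdm4 stands out in Epi E4.5 at 66.9 TPM.

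Other genes of the pathway were read from a list of 33 further p53 targets, of which 32 were tested. In the order Epi E5.0, E5.25 and E5.5, ExE, VE against VE_Epi and VE against VE_ExE, 18, 12, 16, 16, 14 and 20 of the 32 were called higher, and 0, 3, 2, 0, 0 and 1 lower. Their median differences were 1.35, 0.83, 1.13, 1.22, 1.09 and 1.49, lower than those of the 10 members in each comparison. Those values are as deposited. After quantile normalization 11, 12, 13, 11, 9 and 11 were called higher and 2, 3, 2, 0, 0 and 2 lower. After median-ratio scaling 11, 12, 11, 12, 8 and 15 were called higher and 1, 3, 2, 0, 0 and 2 lower. The shares of all genes in each setting are those given above for the members. Over the 4 comparisons that share no library, 4 of the 32 were called higher in every one as deposited: Dcxr, Gtse1, Plk2 and Tnfrsf10b. Plk2, a polo-like kinase, was 142 ± 19.2 TPM in ExE E5.5 in vitro (n = 3) and 3.17 ± 4.49 TPM in vivo (n = 2), a difference of 5.72 ± 0.53 (limma adjusted p = 3.3e-12). Perp, a p53-induced membrane protein of cell junctions, was 83.9 ± 7.94 TPM in unsuffixed and 1.87 ± 1.58 TPM in in vivo Epi E5.25 (n = 3 each), a difference of 5.02 ± 0.44 (adjusted p = 7.8e-13). Gadd45a, a growth arrest gene that also responds to other stresses, went the other way in 3 comparisons, with 7.91 ± 2.2 TPM in VE in vitro and 41.8 ± 8.11 TPM in VE_ExE in vivo (n = 3 each). Pmaip1, encoding the BH3-only protein NOXA, was called lower in unsuffixed Epi E5.25 (-1.58), while in ExE E5.5 in vitro it was called higher, being listed at 0 in vivo. Rps27l, a ribosomal protein paralog and the uncalled target of highest mean level in Epi E5.5, was 1879 ± 347 TPM in vitro and 1388 ± 136 TPM in vivo there, a difference of 0.42 ± 0.13.

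For the further gene lists, the shares of all genes called higher were 23.1%, 7.99%, 15.1%, 9.40%, 12.8% and 28.0% in the same order, and several list counts were at or below them. Genes that act on p53, 17 tested of a list of 18 with kinases, ligases and cofactors, were called higher in 6, 0, 1, 2, 1 and 3 cases, and lower in 1, 1, 0, 0, 0 and 0. Ppm1d, a phosphatase that dampens the p53 response and is itself induced by it, was 24.3 ± 3.25 TPM in vitro and 4.45 ± 0.513 TPM in vivo in ExE E5.5, a difference of 2.21 ± 0.44 (limma adjusted p = 0.00021). Daxx, an Mdm2-binding chaperone of histones, was called higher in Epi E5.0 (2.52 ± 0.39). Among 8 genes of the integrated stress response, which include Sesn2, 2, 3, 3, 4, 3 and 3 were called higher and 1, in Epi E5.0, lower. Trib3, a pseudokinase of that response, was 37.4 ± 5.81 TPM in vitro and 2.29 ± 3.25 TPM in vivo in Epi E5.5, a difference of 4.01 ± 0.47 (adjusted p = 2e-09). Among 12 immediate early genes, which respond within minutes to many stimuli, 4, 0, 11, 1, 10 and 10 were called higher and 2, 4, 1, 1, 0 and 1 lower. Among 15 genes of the BCL2 family and caspases, 2, 3, 3, 2, 1 and 4 were called higher and 0, 0, 2, 0, 2 and 1 lower. Mcl1, a survival factor of that family, was 53 ± 6.99 TPM in vitro and 263 ± 41.5 TPM in vivo in Epi E5.5, a difference of -2.29 ± 0.23 (adjusted p = 3.7e-11). Cdkn1b, another inhibitor of cyclin-dependent kinases, went against Cdkn1a in 3 comparisons, with 35.5 ± 14.4 TPM in vitro and 114 ± 2.69 TPM in vivo in Epi E5.5 (-1.73).

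Between lineages of 1 age, at most 4 of the 10 members were called in any comparison. At E3.5, 2 of 10 members were called higher in TE than in ICM, against 5.92% of all genes, and none lower, against 7.62%. Cdkn1a was 25.2, 28.2 and 31.4 TPM in TE and 6.65, 8.77 and 6.37 TPM in ICM, a difference of 1.83 ± 0.46 (limma adjusted p = 0.0020), with no overlap. Btg2 differed by 1.18 ± 0.39 (adjusted p = 0.023), a call lost without ICM replicate 1 or 2 or TE replicate 2 or 3. A pseudocount of 0.1 TPM ended both calls, with Cdkn1a at an adjusted p of 0.066. The 1 member it called higher was another, against 5.20% of all genes. At E4.5, 1 of 10 members was called lower in PrE than in Epi, against 16.9% of all genes, and none higher, against 11.7%. That was Bax, at 246, 283 and 237 TPM in PrE and 529.7, 645 and 441 TPM in Epi, a difference of -1.06 ± 0.18 (adjusted p = 4.9e-06). The groups did not overlap. The call was lost without Epi E4.5 replicate 2, and without replicate 1, which stands apart, 2 members were called lower. At E5.25 Bax was again the 1 member called, lower in PrE, against 11.2% of all genes called lower and 9.94% called higher, with 429.9, 466 and 489 TPM in PrE and 1041, 1027 and 1158 TPM in unsuffixed Epi.

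At E5.5 in vivo, 3 of 10 members were called lower in ExE than in Epi, against 9.26% of all genes, and none higher, against 11.5%. The 3 were Cdkn1a (-1.99 ± 0.56), Ccng1 (-1.42 ± 0.53) and Phlda3 (-2.26 ± 0.37). Their limma adjusted p were 0.0058, 0.043 and 3.1e-06, with 2 libraries in each group. Without Epi E5.5 in vivo replicate 1 only 1 of them was called, and the Ccng1 call was also lost without Epi replicate 2 or ExE replicate 1. In a fit of these 4 libraries alone none was called, against 0.295% of all genes called higher and 0.218% lower. A pseudocount of 0.1 TPM left only the Phlda3 call, with 11.3% of all genes higher and 8.26% lower.

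Giant cells are polyploid trophoblast cells that copy their genome without dividing, and Cdkn1a had its highest group mean in those of E5.5 in vitro. In TGC E5.5 in vitro it was 548, 626, 669.6 and 643 TPM, and in ExE E5.5 in vitro 50.5, 60.3 and 65.5 TPM. The lowest giant cell library was far above the highest ExE library, and the difference was 3.39 ± 0.43 (limma adjusted p = 2.3e-09). It was the 1 member called higher in TGC, against 6.28% of all genes, and 3 members were called lower, against 31.5%. Those were Btg2 (-2.56 ± 0.36), Phlda3 (-1.44 ± 0.28) and Trp53inp1 (-1.61 ± 0.38), and the calls of Phlda3 and Trp53inp1 were lost after either rescaling. After median-ratio scaling 2 members were called higher and 1 lower, with 14.5% of all genes higher and 14.1% lower, and the member median turned from -0.19 to 0.80. After quantile normalization 1 was called higher and 1 lower, with 13.2% of all genes higher and 14.1% lower, and the median was 0.43. Mdm2 differed by 0.40 ± 0.21 and was not called (adjusted p = 0.12). Of the 32 further targets 3 were called higher and 14 lower as deposited, and 7 higher and 7 lower after either rescaling. Among them Gdf15, a secreted stress cytokine, was at 50.9 ± 8.83 TPM in TGC (n = 4) and 2.18 ± 2.09 TPM in ExE (n = 3). Trp53 was 74.1, 77, 80.0 and 80.3 TPM in TGC and 354, 334 and 341 TPM in ExE, so the tissue with the higher Cdkn1a had the lower Trp53. At E4.75 no member was called by limma between TGC and ExE, against 4.36% of all genes, and 0 of 10 had an unadjusted p under 0.05. Of all genes 2.12% were called higher and 2.24% lower there, and 2.88% and 1.43% after median-ratio scaling. Cdkn1a was then 131, 141 and 136 TPM in TGC and 86.5, 92 and 94.6 TPM in ExE. ExE of E4.75 held the giant cell markers Prl3d1, Prl2c2, Hand1 and Ctsq at a summed 1711 to 1895 TPM, against 175 to 201 TPM in ExE E5.5 in vitro.

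**Figure D4:**
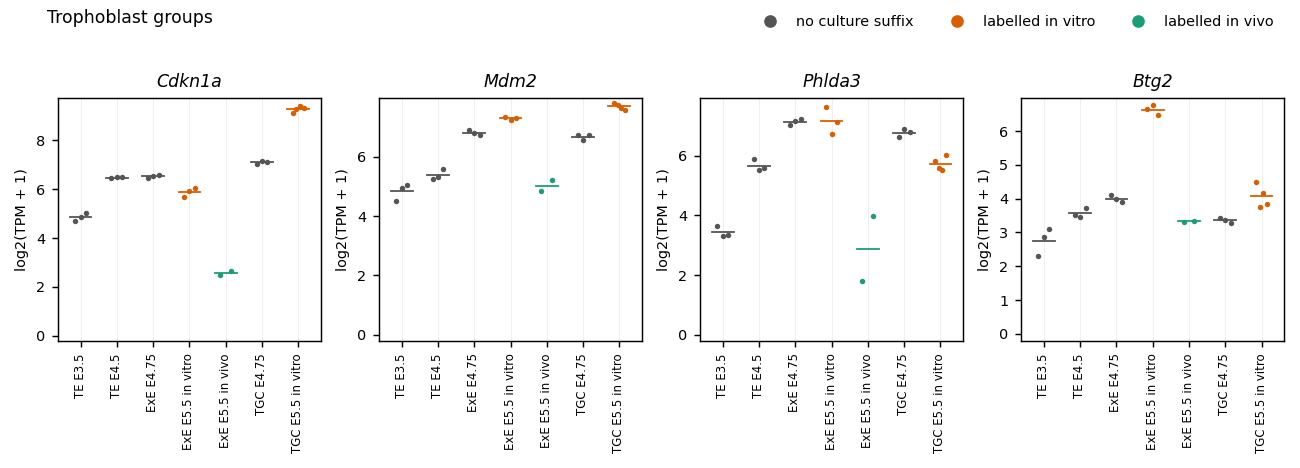
Levels of Cdkn1a, Mdm2, Phlda3 and Btg2 by library (points) with group means (bars) on a log2(TPM + 1) axis in the 7 trophoblast groups; colours give the culture label. Cdkn1a is highest in TGC E5.5 in vitro (622 TPM) and lowest in ExE E5.5 in vivo (4.93 TPM), while Btg2 is highest in ExE E5.5 in vitro (98.3 TPM).

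With age in the trophoblast, the set of members called was not the same in TE, ExE and TGC. Cdkn1a was called higher in both TE and TGC, and Phlda3 was called in both but in opposite directions. From TE E3.5 to TE E4.5, 4 of 10 were called higher, against 3.25% of all genes, and 1 lower, against 18.3%. Phlda3 was 11.6, 8.89 and 9.24 TPM at E3.5 and 58, 45.1 and 47.6 TPM at E4.5, a difference of 2.23 ± 0.30 (limma adjusted p = 3.9e-08). The ages did not overlap. Cdkn1a (1.61 ± 0.46), Ccng1 (1.26 ± 0.43) and Eda2r (1.78 ± 0.44) were also higher, the Ccng1 call being lost without TE E3.5 replicate 2 or 3 or TE E4.5 replicate 1 or 2. A pseudocount of 0.1 TPM ended the calls of Cdkn1a (adjusted p = 0.10) and Ccng1 (adjusted p = 0.051). Sesn2 was lower (-1.53 ± 0.45), a call lost after either rescaling. After median-ratio scaling 8 members were called higher and none lower, with 7.82% of all genes higher and 10.1% lower. Quantile normalization gave 7 and none, with 7.63% of all genes higher and 8.29% lower. Between E4.75 and E5.5 in vitro, Btg2 was the 1 member called higher in ExE (2.63 ± 0.39), against 14.8% of all genes, and none was called lower, against 6.97%. Median-ratio scaling gave the same counts of members with 8.87% of all genes higher and 9.43% lower. Without ExE E5.5 in vitro replicate 2, 2 members were called. In TGC over the same ages Cdkn1a (2.18 ± 0.43) and Mdm2 (1.02 ± 0.21) were called higher, against 6.57% of all genes, and Phlda3 (-1.05 ± 0.28) lower, against 14.8%. Mdm2 in TGC was 107, 93.8 and 106 TPM at E4.75 and 225, 216, 201 and 191 TPM at E5.5, with no overlap. Without TGC E4.75 replicate 2 only Cdkn1a kept its call. The Mdm2 call was also lost without TGC E5.5 replicate 1, and the Phlda3 call without replicate 2 or 3. After median-ratio scaling Phlda3 was at -0.67 (adjusted p = 0.072) and after quantile normalization at -0.71 (adjusted p = 0.077), and neither was called. Both rescalings called 3 members higher and none lower, with 10.8% of all genes higher and 10.8% lower after the former and 10.5% of all genes higher and 10.9% lower after the latter.

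Among the epiblast steps compared, which differ in length and leave out some ages, the most members were called between ICM E3.5 and Epi E4.5. There 5 of 10 members were called higher, against 13.7% of all genes, and none lower, against 16.9%. Cdkn1a was 6.65, 8.77 and 6.37 TPM in ICM and 112, 207 and 120.5 TPM in Epi, a difference of 4.11 ± 0.46 (limma adjusted p = 9.6e-11). Eda2r was 0.875, 0.17 and 1.32 TPM in ICM and 29, 48.3 and 30.0 TPM in Epi, a difference of 4.38 ± 0.44 (adjusted p = 3.1e-12). Both genes were far higher in every Epi E4.5 library. Ccng1 (2.52 ± 0.43) and Trp53inp1 (2.62 ± 0.41) were also called. Bbc3, listed at 0 in all 3 ICM libraries, was called at an adjusted p of 0.0496 and lost without any 1 ICM library or without Epi E4.5 replicate 1 or 2. Mdm2, at 0.95 ± 0.23, lay just under the fold limit, and Bax did not pass the test (-0.01 ± 0.18, adjusted p = 0.98). Without Epi E4.5 replicate 1, 4 of 10 were called. Of the 32 further targets 10 were called higher and 8 lower. Rn45s took up to 24.6% of the TPM in Epi E4.5 and up to 0.596% in ICM.

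From Epi E4.5 to E4.75, which share the Epi E4.5 libraries with the previous comparison, 3 of 10 members were called higher, against 16.0% of all genes, and none lower, against 8.62%. Phlda3 was 10.8, 7.97 and 6.43 TPM at E4.5 and 96.6, 115 and 105 TPM at E4.75, a difference of 3.53 ± 0.30 (limma adjusted p = 4.6e-14), with no overlap. Bbc3 (1.71 ± 0.49) and Btg2 (1.04 ± 0.39) were the others. Without Epi E4.5 replicate 3 only Phlda3 was called, without replicate 1 the count was 2, and the Btg2 call was lost without any of 5 single libraries, namely Epi E4.5 replicates 1 and 3 and the 3 libraries of Epi E4.75. It was lost after both rescalings too, which called 2 members higher and 1 lower, with 12.4% of all genes higher and 11.0% lower after median-ratio scaling. From E4.75 to E5.5 in vitro, Btg2 was called higher (2.09 ± 0.39), against 11.1% of all genes, and Eda2r lower (-1.17 ± 0.44), against 11.2%. The Eda2r call was lost without any 1 of the Epi E4.75 libraries or without Epi E5.5 in vitro replicate 1 or 3. In vivo, from Epi E5.0 to E5.5, Btg2 (2.61 ± 0.43), Phlda3 (1.87 ± 0.34) and Mdm2 (1.07 ± 0.25) were called higher, against 24.7% of all genes. Eda2r was called lower (-1.83 ± 0.49), against 11.2%. Without Epi E5.5 in vivo replicate 2 only 2 members were called, with the Mdm2 and Eda2r calls lost. The Mdm2 call was also lost without Epi E5.0 in vivo replicate 1 or 2, after median-ratio scaling (0.54, adjusted p = 0.059) and after quantile normalization (0.24, adjusted p = 0.45). Both rescalings called 2 members higher and 3 lower, with 19.1% of all genes higher and 17.5% lower after the former and 17.2% of all genes higher and 17.9% lower after the latter. Rn45s took 8.2% to 11% of the TPM in Epi E5.0 in vivo and 0.143% to 0.173% in Epi E5.5 in vivo.

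In the primitive endoderm, Cdkn1a was highest at E4.5, at 294, 338 and 275 TPM. It was 66.3, 71.1 and 62.5 TPM at E4.75, 65.6, 74 and 65.6 TPM at E5.0 and 132, 147 and 153 TPM at E5.25. The E5.25 libraries lay between those of E4.5 and the middle ages. From E4.5 to E5.25, Btg2 (3.24 ± 0.39), Phlda3 (3.31 ± 0.30) and Bbc3 (1.38 ± 0.49) were called higher, against 16.4% of all genes, and Eda2r lower (-1.29 ± 0.44), against 7.62%. Phlda3 was 6.9, 4.33 and 4.76 TPM at E4.5 and 61, 63.3 and 58 TPM at E5.25 (limma adjusted p = 4.5e-13). The ages did not overlap. The Bbc3 call was lost without PrE E4.5 replicate 2 or 3 or PrE E5.25 replicate 1 or 3, and the Eda2r call without PrE E4.5 replicate 1 or PrE E5.25 replicate 2. Quantile normalization also ended the Bbc3 call, with 2 members called higher and 2 lower, and 11.9% of all genes higher and 10.6% lower. Cdkn1a itself was not called over these ages (-1.07 ± 0.46, adjusted p = 0.071).

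Over the 23 group means the members tended to vary together. Of 45 pairs, 44 had a positive Pearson correlation of log2(TPM + 1), with a median of 0.58, and 31 exceeded 0.5. The highest was 0.87, for Cdkn1a with Ccng1, Trp53inp1 with Eda2r, and Ccng1 with Eda2r. The lowest was -0.14, for Btg2 with Bax. Btg2 stood apart from several members, with 0.16 to Cdkn1a and 0.11 to Eda2r. The correlation of each member with Trp53 ran from -0.26 for Cdkn1a to 0.22 for Bax. These correlations are descriptions over groups that share composition and processing, including the low in vivo groups described above.

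**Figure D5:**
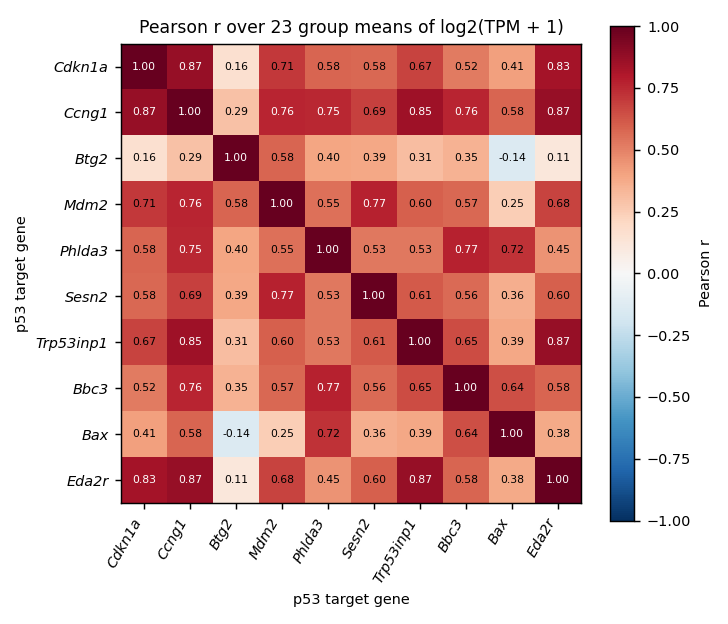
Pearson correlation of group means of log2(TPM + 1) over 23 groups for each pair of the 10 target genes (both axes list the genes; colour and number give r). Most pairs are positive, from -0.14 for Btg2 with Bax up to 0.87, and the lowest values lie in the Btg2 row.

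Among 14350 other genes searched, Siva1 had the pattern most like that of Bax (r = 0.93 over 23 group means). Ptcd1 was most like Sesn2 (0.90), Ctdsp1 most like Btg2 (0.87) and Rhbdf2 most like Trp53inp1 (0.86). Hmox1 was most like Eda2r (0.85), Cmtm3 most like Mdm2 (0.84) and Mapkapk3 most like Bbc3 (0.83). Borcs8 was most like Cdkn1a (0.82), Gne most like Ccng1 (0.81) and Rps27rt most like Phlda3 (0.81).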

How the data were processed

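Smart-seq2 libraries of wild-type embryos were used, per the labels' protocols: 67 in 23 groups, as the labels give them. The authors deposited TPM values for 25006 genes, with column sums between 985702 and 996469. The submitters' processing notes name HISAT2 2.2.1, StringTie 2.2.1, Cufflinks and the build mm10. Which tool did what, the gene annotation and the handling of strand are not given in the sources used here. Because TPM keeps no depth, no precision from counting could be given.

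Of these genes, 15567 reached 1 TPM in 3 or more libraries. Their values were transformed to log2(TPM + 1), which makes changes of low genes look smaller. All libraries entered 1 limma model (3.58.1, R 4.3.3) with a mean for each group and a trended prior, and 21 contrasts were taken with Benjamini-Hochberg adjustment across the 15567 genes. Calls needed an adjusted p below 0.05 together with a log2 difference of 1 or more in size. All adjusted p are limma's, levels are TPM (mean ± SD), and differences are log2 ± standard error.

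The members and lists were chosen with earlier results of these data known. From each list, the text could name 3 called genes per direction, those of largest difference, and the 2 uncalled genes of highest mean, besides the gene most correlated with each member. Dcxr, Gtse1 and Tnfrsf10b are named to spell out a count. Alternatives tried were another pseudocount (0.1 TPM), the full gene set, median-ratio scaling, fitting the compared groups alone, blocking on replicate number, leaving out each library, and quantile normalization, which was chosen after seeing the data. On simulated data with 100 genes changed by 1.5 log2, the model recovered 54% for Epi E5.5, 53% for ExE E5.5 and 58% for TE against ICM. With 100 genes changed by 3 it recovered 92%, 98% and 95%. The changed genes were drawn from those with a mean log2(TPM + 1) above 2, so these rates do not cover lower genes. The simulated noise was normal and independent, without the shifts in composition seen in these libraries. Gene positions came from GENCODE M21 on GRCm38 and promoters from RefSeq on GRCm38.p6. Plots were made with matplotlib 3.10.9.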

Additional observations from a re-analysis of the deposited data

Results flagged for a closer look

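Eda2r had 1 library far from the others in TGC E5.5 in vitro, the only group of 4 libraries. The highest library was 22.6 TPM and the 4 were 22.6, 13.5, 11.9 and 12.8 TPM. Chance alone marks about 1 in 20 such groups, and 12 genes were examined.

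Phlda3 had a culture difference that was not the same in Epi and ExE of E5.5. The Epi difference minus the ExE difference was -2.69 ± 0.48 on the log2 scale (limma adjusted p = 7.4e-05), with the lower difference in Epi. It was 1 of 10 members called in this test, and 10.0% of all genes were called, so the count of members equals the background. In a fit of only the 4 groups compared it was not called (adjusted p = 0.165). ExE E5.5 in vivo, with 2 libraries at 2.51 and 14.6 TPM, was the group with the lowest level of the 4. The endoderm markers found in ExE E5.5 in vitro moved with the same comparison, and their part in it was not tested.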

How the results depend on the processing

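Of 89 calls of a member, 44 were kept under every alternative run and 45 were lost under at least 1, and 0 reversed. The counts of members called stayed within 1.5 times of the main count with no filter and with the replicate block. With only the groups compared fitted, the count was 4 for Epi E5.5 and 4 for VE against VE_ExE, 2 for PrE against Epi at E4.5 and 2 at E5.25, 0 for ExE against Epi in vivo and 2 for Epi in vivo E5.5 against E5.0. In that order, these fits called 3.07%, 11.9%, 5.40%, 11.0%, 0.295% and 12.9% of all genes higher. They called 1.92%, 3.38%, 5.95%, 12.9%, 0.218% and 6.06% lower. With a pseudocount of 0.1 TPM the count of members was 1 for TE against ICM, 1 for ExE against Epi in vivo, 1 for Epi E5.5 in vitro against E4.75 and 3 for TE E4.5 against E3.5. The shares of all genes there were 5.20%, 11.3%, 8.19% and 3.65% higher and 6.87%, 8.26%, 12.3% and 16.3% lower. The 1 for TE against ICM was neither Cdkn1a nor Btg2, which the main fit called. This pseudocount ended 18 of the 89 calls, and fits of only the groups compared ended 27. With median-ratio scaling the count of members was 5 for VE against VE_Epi and 8 for TE E4.5 against E3.5, and with quantile normalization 2 for TGC against ExE at E5.5 and 2 for Epi against ExE in the culture difference. In that order, 6.75%, 7.82%, 13.2% and 4.51% of all genes were called higher and 7.52%, 10.1%, 14.1% and 4.36% lower. The cause was not tested.

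With each library left out in turn, the counts ran from 7 to 8 in Epi E5.0, 5 to 8 in Epi E5.25, 6 to 9 in Epi E5.5, 8 to 10 in ExE E5.5, 6 to 7 in VE against VE_Epi and 9 to 9 in VE against VE_ExE. They ran from 1 to 2 for TE against ICM, 1 to 2 for PrE against Epi at E4.5, 1 to 1 at E5.25, 0 to 0 for TGC against ExE at E4.75, 4 to 5 at E5.5 and 1 to 4 for ExE against Epi in vivo. They ran from 4 to 5 for Epi E4.5 against ICM, 1 to 3 for Epi E4.75, 1 to 2 for Epi E5.5 in vitro, 2 to 5 for Epi in vivo, 3 to 3 for PrE, 4 to 5 for TE, 1 to 2 for ExE, 1 to 3 for TGC and 1 to 2 for Epi against ExE in the culture difference. Where a group was left with 1 library, it was assumed to vary like the others. The shares of all genes called were not computed for these fits, so their counts have no background beside them.

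Within the comparisons made, the correlations of same-numbered libraries' deviations over the kept genes ran from -0.05 to 0.06. The Rn45s values did follow the replicate number at some ages. Epi and PrE of E5.0 were not compared there. In both, replicate 1 had the lowest Rn45s, at 0.370% in unsuffixed Epi and 0.468% in PrE. Replicates 2 and 3 held 1.17% and 1.19% in Epi and 1.22% and 1.14% in PrE. At E4.75 replicate 1 was again the lowest in Epi, PrE, ExE and TGC, and there TGC and ExE were compared. Replicates 1, 2 and 3 held 0.440%, 0.616% and 0.607% in ExE and 0.305%, 0.558% and 0.446% in TGC. Whether same-numbered libraries share more than a number was not tested. The fit with the replicate block called 8, 7, 9 and 9 members higher in Epi E5.0, E5.25 and E5.5 and in ExE E5.5, and 7 and 9 in VE against VE_Epi and VE_ExE. In that order it called 22.9%, 7.89%, 14.7%, 9.21%, 12.6% and 28.0% of all genes higher. It lost 2 of the 89 calls, Sesn2 in VE against VE_Epi and Ccng1 in ExE against Epi in vivo.

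Depth is unknown, so a level near 0 cannot be told from a missed estimate. Groups of 2 to 4 libraries from few cells limit every test.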
